A study of Homo sapiens with 8 samples.

Results

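This comparison used the 4 input RNA libraries of the series, out of 8 libraries in all, and set the libraries titled U1 and U2 against those titled CT1 and CT2. The libraries were chosen by their titles, and the title number 1 or 2 was kept as a block, so that each U library was read against the CT library with the same number. All came from OCI-AML3, an established human acute myeloid leukaemia line. CT1 and CT2 carry the genotype label WT, although the labels' protocols state that cells were infected with either a control hairpin (shCT) or a hairpin against FBL (shFBL). U1 and U2 carry the genotype label FBL knockdown, and the labels do not say what U stands for. Cells of both labels received cycloheximide, which halts elongating ribosomes, for 15 min at 100 µg/mL before lysis in 400 µL of buffer. Input RNA is the RNA of 100 µL of cleared lysate that was kept back when 290 µL went onto a 10% to 50% sucrose gradient, so it measures transcript abundance and not ribosome loading. The other 4 libraries hold polysome RNA of the same titles. The sources used here do not give the vector, the number of hairpins, the time after infection or whether the libraries of a label came from separate cultures. The p-values therefore measure only the spread between these libraries, which may be technical.

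FBL, the gene the hairpin targets, encodes fibrillarin, the nucleolar enzyme that methylates ribosomal RNA at sites chosen by box C/D guide RNAs. FBL (ENSG00000105202, chromosome 19, 39834458 to 39846414, minus strand, GRCh38) stood at 272 CPM in CT1 and 96.8 CPM in CT2, against 277 CPM in U1 and 92.3 CPM in U2. Levels are in CPM, the gene's count divided by the library's total and brought to a common scale by edgeR, after TMM, a normalization that sets most genes equal between libraries. The levels followed the library number and not the label: both libraries numbered 1 were high and both numbered 2 were low. Between the labels the log2 fold change of FBL was -0.02 (SE 0.08, edgeR adjusted p = 0.947), with 0.02 within number 1 and -0.07 within number 2, while number 2 against number 1 gave -1.54. The targeted gene thus did not follow the label, and U and CT below mean only the libraries labelled so. Every direction is U relative to CT, and "rose by" and "fell by" give differences on the log2 scale for genes that passed the test.

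OCI-AML3 cells are blasts of the myeloid lineage, arrested before they become monocytes or granulocytes. Such cells keep part of the monocyte program: chemokines that recruit monocytes, receptors for antibodies and debris, and granule proteases. They also respond to interferons, secreted proteins that signal through JAK kinases and STAT factors to a set of antiviral and antigen-presentation genes. Genes of these programs and of energy metabolism were among those that rose in the U libraries, and genes of ribosome assembly, sterol synthesis and chaperones were among those that fell.

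Gene counts ranged from 30818670 in U1 to 43118190 in U2, and 18323 to 18440 genes had at least 1 read. Reads outside any gene came to 4.90% of all listed reads in U1 and 5.41% to 5.45% in the other input libraries, and mitochondrial genes held 5.02% to 5.46% of gene counts. The myeloid label was checked against 12 marker genes, all of which passed the filter on low counts. Their summed level was 1619 and 1854 CPM in CT1 and CT2 and 1829 and 2008 CPM in U1 and U2, led by SPI1, CEBPA, ANPEP and CD74. MPO stayed at 0.870 to 2.30 CPM and CD68 below 1 CPM. Markers of other cell types were low: erythroid and megakaryocyte markers summed to 15.8 to 26.5 CPM, with no read for 10 of 21, and fibroblast and epithelial markers to 3.80 to 5.89 CPM. Lymphoid markers summed to 92.5 to 106 CPM in CT and 112 to 132 CPM in U, and 11 of 21 had no read. CD4, which monocytes also carry, was the called gene among them, and the part of such genes in the results below was not tested.

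Between the labels, 752 genes were called higher in U and 577 lower, out of 15543 tested (4.84% and 3.71%, together 8.55%). A gene was called at a Benjamini-Hochberg adjusted p under 0.05 in edgeR's quasi-likelihood test with the number as a block. The changes were mostly small, with a median log2 fold change of 0.47 among the higher and -0.34 among the lower genes, and 126 genes changed by at least 1 on the log2 scale. Of the called genes, 1251 were protein coding and 44 were long noncoding. Both U libraries lay above both CT libraries for 688 of the 752 higher genes, and below both for 531 of the 577 lower genes, against 6530 genes without overlap in either direction among all tested. For 6 called genes the direction differed between the numbers. The number itself separated 816 genes (5.25%), 420 higher (2.7%) and 396 lower (2.55%) in number 2.

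The calls rest on a spread shared across genes. With 4 libraries and 3 terms in the model, each gene had 1 residual degree of freedom, and edgeR gave all genes the spread of the overall trend (infinite prior degrees of freedom). That value does not show that genes vary alike. The prior degrees of freedom were finite in fits with more residual degrees of freedom, at 8.49 without the block and 5.27 with all 8 libraries. Adjusted p-values below are therefore small even for modest changes, and the values within each number show the repeat directly. The SEs given for input RNA also rest on the shared spread and are not a gene's own spread between the numbers. For PFKFB4 the SE was 0.09, against 0.335 taken over the within-number differences. For FTH1 these were 0.07 and 0.006. Without the block, edgeR called 7 genes (0.045%), all higher, among them CCL2, FTH1, IFITM3, MARCO, ZFP36L1 and ENSG00000274276 (1791 genes had an unadjusted p under 0.05). A fit of all 8 libraries with a number block in each fraction called none (1439 of 16503 genes at an unadjusted p under 0.05, smallest adjusted p 0.0838), and limma-voom without a shared spread called none (1177 at an unadjusted p under 0.05). DESeq2 with the block called 341 higher and 280 lower, and limma-voom with the block 746 higher (4.8%) and 594 lower (3.82%), together 8.62%. Of the named genes other than FBL, 103 also passed with DESeq2 and 17 did not, and it gave the rest no adjusted p. Those that did not pass include PFKFB4, TERT, ACACA, NFKBIB, PSMB7, PSMB1, NOL9, HYOU1, DANCR, HLA-F, FOXM1, HSPH1 and SURF6. Apart from the 7, no input change named below passed without the block, and none passed in the 8-library fit.

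Repeat across the numbers was counted without any model. Among 8812 genes averaging at least 10 CPM in the higher group, 225 were up by more than 1.5-fold in U1 against CT1 and 302 in U2 against CT2, and 99 of them in both. Down by as much were 88 and 146 genes, with 12 in both, and 2 genes moved past 1.5-fold in opposite directions. Of the 111 genes past the fold in both numbers, 110 were called. Across 8608 of these genes at 10 CPM or more, the U1 minus CT1 and U2 minus CT2 differences had a Pearson correlation of 0.508, given as a description over genes that share libraries.

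**Figure D1:**
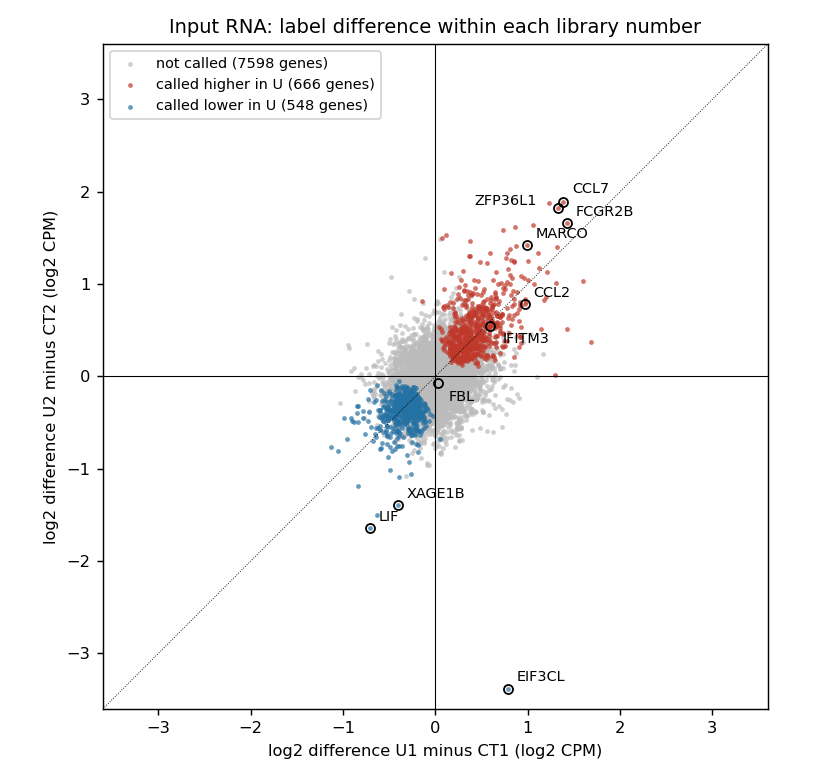
Log2 difference in input RNA between U1 and CT1 (horizontal axis, log2 CPM) and between U2 and CT2 (vertical axis), one point per gene averaging at least 10 CPM in the higher group, coloured by the call in the blocked fit. CCL7, ZFP36L1 and FCGR2B lie far to the upper right in both numbers, LIF to the lower left, FBL beside the origin, and EIF3CL far below 0 in number 2 only.

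The interferon-linked genes include IFITM3, an interferon-induced membrane protein that blocks the entry of enveloped viruses. IFITM3 (ENSG00000142089, chromosome 11, 319669 to 327537, minus strand, GRCh38) stood at 699.6 CPM in CT1 and 711 CPM in CT2, against 1052 CPM in U1 and 1034 CPM in U2. The U libraries were alike and both above the CT libraries. The log2 fold change was 0.56 (SE 0.06, edgeR adjusted p = 3.4e-18), with 0.59 within number 1 and 0.54 within number 2; the adjusted p was 0.0481 without the block and 0.0838 in the 8-library fit. IFITM2, its neighbour and close paralog, rose by 0.44 (SE 0.07). Reads of these paralogs and of overlapping transcripts may be split between them, so the counts of both are uncertain.

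STAT complexes that interferons activate recognise a short element in promoters whose core is a repeat of GAAA. The motif of GAAA, any 2 bases (NN) and GAAA again was searched on both strands in the 250 bases before each gene's start (RefSeq, GRCh38.p14). It was present in 3.71% of the 27305 genes with a promoter in the table, in 3.49% of the 10985 tested genes with one, and in 23 of 39 interferon-stimulated genes with one (59.0%). Among genes called higher it was present in 44 of 589 (7.47%), and among those called lower in 11 of 460 (2.39%). A match is a description of letters and not a binding site. The windows of 4 genes that rose are shown because each holds the motif at least 2 times. Capitals mark the motif, read on the printed strand either as 2 copies of GAAA or, for a match on the opposite strand, of its reverse complement TTTC, and positions count back from the gene start. IFITM3 lies at chr11:320861-321110 on the minus strand, with matches starting at -52 and -35. IFI27 lies at chr14:94110486-94110735 on the plus strand, with matches at -108 on the opposite strand and at -95. IFI6 lies at chr1:27672193-27672442 on the minus strand, with matches at -156, -115 and -93. B2M lies at chr15:44711267-44711516 on the plus strand, with overlapping matches at -144 and -138.
IFITM3: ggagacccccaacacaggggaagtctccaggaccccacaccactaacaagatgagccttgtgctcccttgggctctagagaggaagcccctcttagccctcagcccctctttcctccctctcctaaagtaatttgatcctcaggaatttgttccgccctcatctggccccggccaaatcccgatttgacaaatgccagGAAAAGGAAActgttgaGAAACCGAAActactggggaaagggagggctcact
IFI27: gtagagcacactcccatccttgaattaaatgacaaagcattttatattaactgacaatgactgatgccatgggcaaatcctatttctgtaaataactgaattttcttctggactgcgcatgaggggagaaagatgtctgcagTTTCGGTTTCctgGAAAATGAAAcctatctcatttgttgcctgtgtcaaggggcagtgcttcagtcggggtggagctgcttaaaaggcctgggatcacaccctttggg
IFI6: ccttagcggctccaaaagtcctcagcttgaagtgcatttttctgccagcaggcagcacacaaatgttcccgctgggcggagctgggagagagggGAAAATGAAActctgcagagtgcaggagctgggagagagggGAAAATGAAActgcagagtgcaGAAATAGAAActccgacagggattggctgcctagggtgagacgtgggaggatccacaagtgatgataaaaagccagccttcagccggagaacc
B2M: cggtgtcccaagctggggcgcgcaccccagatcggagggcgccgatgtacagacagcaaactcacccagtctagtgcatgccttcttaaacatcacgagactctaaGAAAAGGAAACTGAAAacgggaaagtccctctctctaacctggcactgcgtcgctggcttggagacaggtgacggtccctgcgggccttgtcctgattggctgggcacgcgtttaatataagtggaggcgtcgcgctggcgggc
The windows of PSMB8 and PSMB9 hold no such run of letters, and GBP2, IFITM2 and CCL2 were not found in the table.

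Of the genes whose promoters are shown, IFI27, a mitochondrial protein induced by type I interferon, stood at 329.9 CPM in CT1 and 235 CPM in CT2, against 586 CPM in U1 and 361 CPM in U2. Both U libraries exceeded both CT libraries, although the number also moved the gene. Its log2 fold change was 0.73 (SE 0.07). IFI6, an endoplasmic reticulum protein that limits flavivirus replication, stood at 879 CPM in CT1 and 979 CPM in CT2, against 1204 CPM in U1 and 1362 CPM in U2. The groups did not overlap, and the log2 fold change was 0.47 (SE 0.06). The guanylate-binding protein GBP2 stood at 9.57 CPM in CT1 and 10.1 CPM in CT2, against 19.2 CPM in U1 and 20.7 CPM in U2, a log2 fold change of 1.02 (SE 0.19). ISG20, an exonuclease that degrades viral RNA, stood at 56.3 CPM in CT1 and 38.1 CPM in CT2, against 84.7 CPM in U1 and 66.2 CPM in U2, a log2 fold change of 0.69 (SE 0.10). Among interferon-stimulated genes as a list, 17 of 48 measured members rose (35.4%) and 1 fell (PARP14, log2 fold change -0.22), with a median of 0.15 (0.19 within number 1, 0.17 within number 2). Over all genes tested the median was 0.0038, and among genes averaging at least 10 CPM 7.56% rose and 6.22% fell. Not every classical member moved: MX1 had a log2 fold change of 0.02 and the factor IRF7 of -0.02, and neither was called.

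Called genes of antigen presentation were all higher. MHC class I molecules display peptides cut by the proteasome to CD8 T cells, with B2M as their shared light chain. B2M stood at 598 CPM in CT1 and 694 CPM in CT2, against 895 CPM in U1 and 1003 CPM in U2. The U libraries were both higher, with a log2 fold change of 0.56 (SE 0.06). In the list of class I and peptide-loading genes, 8 of 19 measured members rose (42.1%) and 0 fell, with a median of 0.20 (0.14 within number 1, 0.26 within number 2). HLA-F, a nonclassical class I gene, rose by 0.39 (SE 0.10). The immunoproteasome subunits PSMB9 and PSMB8, which share exon sequence with each other in the annotation, rose by 0.38 and 0.32. HLA genes have near-identical copies, so their counts are uncertain. Of the 4 class II genes that passed the filter, the invariant chain CD74 rose by 0.51 (SE 0.08) and the protease CTSS, which trims that chain, by 0.36 (SE 0.09).

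Chemokines that draw monocytes to a tissue were among the genes that rose. CCL2 (ENSG00000108691, chromosome 17, 34255218 to 34257203, plus strand, GRCh38) stood at 81.0 CPM in CT1 and 94.7 CPM in CT2, against 158 CPM in U1 and 163 CPM in U2. The lowest U library was well above the highest CT library. The log2 fold change was 0.87 (SE 0.08, edgeR adjusted p = 6.36e-22), with 0.97 within number 1 and 0.78 within number 2, and the adjusted p was 0.0418 without the block and 0.0838 in the 8-library fit. CCL7, a close relative, stood at 4.27 CPM in CT1 and 2.99 CPM in CT2, against 11.2 CPM in U1 and 11.2 CPM in U2. This was the largest increase among called coding genes of at least 10 CPM that moved the same way in both numbers, at 1.63 (SE 0.28), with 1.38 within number 1 and 1.88 within number 2. CXCL10, an interferon-induced attractant of T cells, stood at 149 CPM in CT1 and 103 CPM in CT2, against 293 CPM in U1 and 184 CPM in U2. It rose within both numbers although CT1 and U2 were close, with a log2 fold change of 0.91 (SE 0.08). In the list of chemokines and cytokines, 11 of 36 measured members rose (30.6%) and 2 fell, with a median of 0.36 (0.39 within number 1, 0.20 within number 2). CXCL16 and CCL13 also rose but averaged below 5 CPM.

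The cytokine LIF, which signals through the gp130 receptor, was the largest decrease by that rule. LIF stood at 7.94 CPM in CT1 and 19.6 CPM in CT2, against 4.84 CPM in U1 and 6.25 CPM in U2. Both U libraries were below both CT libraries, and CT2 stood far above the rest, so the log2 fold change of -1.33 (SE 0.24) came to -0.71 within number 1 and -1.64 within number 2. TNF, the central inflammatory cytokine, fell by 0.45. IL32, a cytokine of monocytes and lymphocytes, stood at 10.1 CPM in CT1 and 19.1 CPM in CT2, against 30.7 CPM in U1 and 39.1 CPM in U2. It rose by 1.27 (SE 0.15), with no overlap. VEGFA, the vascular growth factor, rose by 0.63 (SE 0.18). Among cytokine and chemokine receptors, 4 of 31 measured members rose (12.9%) and 2 fell (6.45%), against 7.56% and 6.22% among genes averaging at least 10 CPM. CSF1R, the receptor that carries the M-CSF signal for monocyte survival, stood at 10.1 CPM in CT1 and 7.80 CPM in CT2, against 17.3 CPM in U1 and 19.8 CPM in U2. The groups were apart, and the log2 fold change was 1.06 (SE 0.20). TNFRSF1B, the second TNF receptor, rose by 0.59 (SE 0.08), IFNGR2, a chain of the interferon gamma receptor, by 0.57 (SE 0.10), and TGFBR1, the type I TGF-beta receptor, by 0.40 (SE 0.07). The receptors that fell were CXCR4, at -0.26, and TNFRSF1A, at -0.22.

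**Figure D2:**
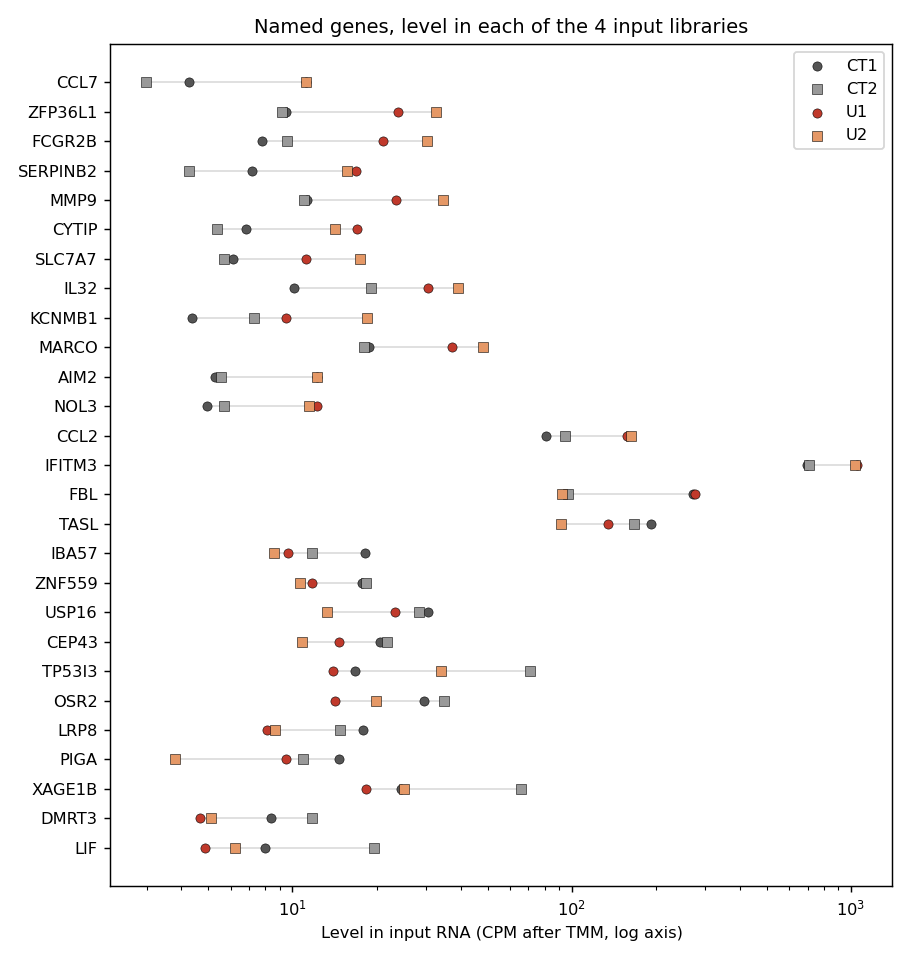
Level of each gene in each of the 4 input libraries (CPM after TMM, log axis), for FBL, IFITM3, CCL2 and the 12 largest increases and 12 largest decreases among well-expressed coding genes; the grey line spans the 4 libraries. Red points lie to the right of grey points from CCL7 to IFITM3, the FBL points pair by number, and XAGE1B and TP53I3 overlap between the groups.

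Among monocyte surface receptors the called genes were all higher. Because these are bulk libraries, more cells of a type and more RNA per cell cannot be told apart. In the list of monocyte and macrophage receptors, 11 of 40 measured members rose (27.5%) and 0 fell, with a median of 0.48 (0.27 within number 1, 0.63 within number 2). MARCO, a scavenger receptor of macrophages that binds bacteria and particles, stood at 18.7 CPM in CT1 and 18 CPM in CT2, against 37.2 CPM in U1 and 48.2 CPM in U2. The U levels were far above the CT levels, at a log2 fold change of 1.21 (SE 0.14). CD14, the coreceptor for bacterial lipopolysaccharide, stood at 22.7 CPM in CT1 and 24.0 CPM in CT2, against 45.1 CPM in U1 and 41.9 CPM in U2. Its groups did not overlap either, and the log2 fold change was 0.89 (SE 0.13). CD86, a ligand that costimulates T cells, rose by 1.30 (SE 0.35), TREM1, an amplifier of inflammatory signals, by 1.16 (SE 0.37) and the inhibitory receptor CD300A by 1.15 (SE 0.39), each at levels below 10 CPM. Within numbers 1 and 2, CD86 came to 0.35 and 2.01, TREM1 to 0.65 and 2.00, and CD300A to 0.98 and 1.24. Of the AML lineage markers, 2 of 12 measured members rose (16.7%) and 0 fell, against 7.56% and 6.22% among genes averaging at least 10 CPM. The markers had a median of 0.12 (0.19 within number 1, 0.03 within number 2). Among them CD74 and ANPEP, which encodes the myeloid surface peptidase CD13, were the called genes.

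Fc receptors bind the constant part of antibodies and trigger or restrain phagocytosis. Among them, 5 of 9 measured members rose (55.6%) and 0 fell, with a median of 0.65 (0.89 within number 1, 0.59 within number 2). FCGR2B, the inhibitory member, stood at 7.80 CPM in CT1 and 9.56 CPM in CT2, against 21.1 CPM in U1 and 30.3 CPM in U2. The U libraries stood clearly apart, with a log2 fold change of 1.56 (SE 0.18). FCER1G, the signalling chain that several activating receptors share, stood at 131 CPM in CT1 and 169 CPM in CT2, against 215 CPM in U1 and 255 CPM in U2. Its groups were apart as well, and the log2 fold change was 0.65 (SE 0.08). FCGR2A rose by 0.60 (SE 0.12). FCGR3A rose by 1.83 (SE 0.63) but stayed below 3 CPM. FCGR2A, FCGR2B and FCGR3A have near-identical copies, so reads may be shared among them.

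The S100 proteins, annexins and galectins, many of them calcium-binding proteins abundant in monocytes and neutrophils, had calls mostly on the higher side: 11 of 20 measured members rose (55%) and 1 fell (LGALS12, log2 fold change -0.25), with a median of 0.34 (0.36 within number 1, 0.31 within number 2). S100A9 stood at 65.7 CPM in CT1 and 115 CPM in CT2, against 115 CPM in U1 and 231 CPM in U2. CT2 and U1 coincided, with number 2 higher within each label, and S100A9 rose within both numbers, with a log2 fold change of 0.91 (SE 0.08). Its partner in calprotectin, S100A8, stood at 290.1 CPM in CT1 and 501 CPM in CT2, against 443 CPM in U1 and 844 CPM in U2. It overlapped between the groups in the same way and rose by 0.68 (SE 0.06). S100A11 stood at 642 CPM in CT1 and 763 CPM in CT2, against 1016 CPM in U1 and 1110.3 CPM in U2, and ANXA1, which damps inflammation, at 68.7 CPM in CT1 and 57.2 CPM in CT2, against 105 CPM in U1 and 87.2 CPM in U2. Both were free of overlap, with log2 fold changes of 0.60 (SE 0.06) and 0.61 (SE 0.09). CHI3L1, a secreted chitinase-like protein of macrophages and neutrophils, had the smallest p of all genes: it stood at 144 CPM in CT1 and 377 CPM in CT2, against 302 CPM in U1 and 758 CPM in U2, a log2 fold change of 1.03 (SE 0.07) with 1.07 within number 1 and 1.01 within number 2.

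Granule proteins were mixed. In that list 5 of 12 measured members rose (41.7%) and 2 fell: the proteases PRTN3 (0.40) and MMP9 (1.37) and the ribonucleases RNASE2 (0.38) and RNASE3 (0.63) were among the genes that rose, while CTSG (-0.25) and AZU1 (-0.22), serine protease family members of the azurophil granule, fell. Myeloid transcription factors mostly gave small differences. IRF8, needed for the monocyte and dendritic lineages, stood at 521 CPM in CT1 and 567 CPM in CT2, against 428 CPM in U1 and 409 CPM in U2, and fell by 0.38 (SE 0.06). Its groups did not overlap. GFI1, a transcriptional repressor that acts in the granulocyte lineage, fell by 0.32 (SE 0.09). Of 25 such factors 2 fell (8%) and 1 rose (4%), against 3.71% and 4.84% of all genes tested, and the median was 0.03. No member of the HOX, MEIS1 and PBX3 leukaemia program was called among 20 tested (edgeR; 1 had an unadjusted p under 0.05, and DESeq2 and limma-voom with the block called 0).

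Proteases and matrix proteins had calls only on the higher side. In the list of matrix proteases and inhibitors 8 of 20 measured members rose (40%) and 0 fell, with a median of 0.43 (0.43 within number 1, 0.51 within number 2). MMP9, the gelatinase that degrades basement membrane collagen, stood at 11.3 CPM in CT1 and 11 CPM in CT2, against 23.5 CPM in U1 and 34.5 CPM in U2. Both U libraries were at least 2 times the CT levels, and the log2 fold change was 1.37 (SE 0.17). SERPINB2, an inhibitor of plasminogen activators, stood at 7.18 CPM in CT1 and 4.24 CPM in CT2, against 16.9 CPM in U1 and 15.7 CPM in U2. It rose by 1.52 (SE 0.23) without overlap. Fibronectin, FN1, rose by 0.74 (SE 0.13), and THBS1, the matrix protein thrombospondin, by 1.88 (SE 0.39) from levels below 3 CPM in CT. The complement genes C3 and CFD rose by 0.70 (SE 0.10) and 0.59 (SE 0.08). C3 overlapped between the groups, with number 2 higher in each label.

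Lysosome, adhesion and cytoskeleton genes moved by smaller amounts. Of lysosome and cathepsin genes, 10 of 37 measured members rose (27%) and 0 fell, with a median of 0.19 (0.14 within number 1, 0.26 within number 2). NPC2, which moves cholesterol out of lysosomes, rose by 0.54 (SE 0.14), CTSH, a lysosomal protease, by 0.50 (SE 0.12), GRN, the precursor of granulins, by 0.41 (SE 0.08) and PSAP, the precursor of saposins, by 0.38 (SE 0.08). Of integrins and adhesion genes, 3 of 20 measured members rose (15%) and 0 fell, against 7.56% and 6.22% among genes averaging at least 10 CPM. CD82, CD81 and ITGB2 rose, by 0.64, 0.38 and 0.37. In the actin and small GTPase list, 14 of 31 measured members rose (45.2%) and 2 fell, with a median of 0.17 (0.12 within number 1, 0.17 within number 2). TMSB4X, the main actin-sequestering thymosin, stood at 3532 CPM in CT1 and 5073 CPM in CT2, against 5517 CPM in U1 and 7311 CPM in U2. Both U libraries were above both CT libraries, at a log2 fold change of 0.59 (SE 0.05). TMSB10 rose by 0.42 (SE 0.06) and gelsolin, GSN, by 0.65 (SE 0.16), while RHOB fell by 0.49 (SE 0.16) and EZR fell by 0.25. The thymosins and ferritins have many processed pseudogenes, which can take or lend reads.

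Iron and redox genes had more calls on the higher side. FTH1, the ferritin heavy chain that oxidises iron for storage, stood at 247 CPM in CT1 and 245 CPM in CT2, against 393 CPM in U1 and 386 CPM in U2. The libraries of each label were nearly equal, and the log2 fold change was 0.66 (SE 0.07, edgeR adjusted p = 1.14e-18). FTL, the light chain, stood at 7958 CPM in CT1 and 8100.2 CPM in CT2, against 10892 CPM in U1 and 10248 CPM in U2, and rose by 0.40 (SE 0.05). HMOX1, which releases iron from heme, rose by 0.65 (SE 0.12), and BLVRB, which reduces biliverdin, by 0.72 (SE 0.15). In the iron and heme list 5 of 16 measured members rose (31.2%) and 2 fell, the falls being the transferrin receptor TFRC (-0.28) and the ferritin autophagy receptor NCOA4 (-0.24). Of NADPH oxidase and antioxidant genes, 10 of 23 measured members rose (43.5%) and 0 fell, with a median of 0.24 (0.29 within number 1, 0.16 within number 2). The quinone reductase NQO1 stood at 71.2 CPM in CT1 and 75.7 CPM in CT2, against 103 CPM in U1 and 134 CPM in U2, and rose by 0.68 (SE 0.09). The peroxidases GPX1, PRDX5 and PRDX3 rose by 0.54, 0.42 and 0.37, with overlap between the groups for GPX1. Of 7 metallothioneins, the metal-binding stores of zinc and copper, MT2A (0.55), MT1X (0.46) and MT1E (0.22) rose, and MT1G (-0.23) fell. Metallothioneins are near-identical copies of each other, so their split is uncertain.

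Calls among genes of glucose use were all higher. Glycolysis turns glucose into pyruvate and is driven up by the oxygen-sensing factor HIF1 when oxygen is short. In the glycolysis list, 13 of 25 measured members rose (52%) and 0 fell, with a median of 0.24 (0.18 within number 1, 0.31 within number 2). ENO2, an enolase, stood at 19.5 CPM in CT1 and 13.6 CPM in CT2, against 32.5 CPM in U1 and 40.7 CPM in U2. Its levels in U were higher throughout, with a log2 fold change of 1.15 (SE 0.15), at 0.73 within number 1 and 1.58 within number 2. PFKFB4, which makes the activator of phosphofructokinase, stood at 77.5 CPM in CT1 and 61.4 CPM in CT2, against 114 CPM in U1 and 144 CPM in U2, and rose by 0.90 (SE 0.09). The rise of PFKFB4 was 0.56 within number 1 and 1.23 within number 2, and DESeq2 with the block did not call it (DESeq2 adjusted p = 0.0677). PFKM, the muscle form of phosphofructokinase, rose by 0.71 (SE 0.18), and SLC2A3, a glucose transporter, by 0.65 (SE 0.12). Of hypoxia and HIF target genes, 7 of 17 measured members rose (41.2%) and 0 fell, with a median of 0.34 (0.39 within number 1, 0.46 within number 2). DDIT4, an inhibitor of mTOR signalling, stood at 19.5 CPM in CT1 and 24.0 CPM in CT2, against 37.8 CPM in U1 and 50.3 CPM in U2. It rose by 1.02 (SE 0.13) without overlap. EGLN3, a prolyl hydroxylase that acts on HIF, rose from 0.190 and 0.119 CPM to 1.62 and 2.07 CPM, and ADM, a vasodilator peptide, from 1.20 and 0.179 CPM to 2.37 and 3.99 CPM.

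Called lipid genes split by function. In the sterol and fatty acid synthesis list, 9 of 30 measured members fell (30%) and 0 rose, with a median of -0.11 (-0.13 within number 1, -0.15 within number 2). LSS, which closes the sterol ring, stood at 48.6 CPM in CT1 and 47.5 CPM in CT2, against 25.9 CPM in U1 and 34.1 CPM in U2. Its groups were apart, with U lower, and the log2 fold change was -0.67 (SE 0.12). INSIG1, which holds the sterol-sensing factor SREBP in the endoplasmic reticulum and is itself one of its targets, stood at 92.8 CPM in CT1 and 79.3 CPM in CT2, against 64.7 CPM in U1 and 47.7 CPM in U2, and fell by 0.63 (SE 0.10). MSMO1, a demethylase of the same pathway, fell by 0.50 (SE 0.12), and ACACA, the first enzyme of fatty acid synthesis, fell by 0.37 (SE 0.12). In the list of cholesterol efflux and lipid handling genes, 6 of 14 measured members rose (42.9%) and 0 fell, with a median of 0.21 (0.43 within number 1, 0.36 within number 2). PLIN2, which coats lipid droplets, stood at 49.1 CPM in CT1 and 49.9 CPM in CT2, against 76.7 CPM in U1 and 94.2 CPM in U2. It rose by 0.79 (SE 0.10) without overlap. The nuclear receptor PPARG rose by 0.75 (SE 0.19) and APOC1 by 0.70 (SE 0.24), and APOE rose from below 0.5 CPM to 1.04 and 2.96 CPM.

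Nuclear-encoded subunits of the respiratory chain were the largest list with calls on a single side: 31 of 77 measured members rose (40.3%) and 0 fell, with a median of 0.22 (0.21 within number 1, 0.19 within number 2). Of the 77, 56 were up and 13 down in both numbers, against 4896 up and 4829 down of all 15543 genes tested. NDUFA1, a small subunit of complex I, stood at 9.35 CPM in CT1 and 10.7 CPM in CT2, against 16.2 CPM in U1 and 24.0 CPM in U2. It rose by 1.00 (SE 0.19), and U2 was the highest library. COX7A2, a subunit of cytochrome oxidase, rose by 0.64 (SE 0.15), NDUFS7, an iron-sulphur subunit of complex I, by 0.62 (SE 0.13) and SDHD, a membrane anchor of succinate dehydrogenase, by 0.59 (SE 0.13). The 13 coding genes of the mitochondrial genome, which build the other subunits, had a median of 0.02: MT-ND6 rose by 0.20 and MT-CO3 fell by 0.21.

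Many ribosomal protein genes rose, by small amounts. For the large subunit, 22 of 46 measured members rose (47.8%) and 1 fell (RPLP0, log2 fold change -0.26), with a median of 0.17 (0.16 within number 1, 0.18 within number 2). For the small subunit, 14 of 32 measured members rose (43.8%) and 1 fell (RPS10, log2 fold change -0.25), with a median of 0.11 (0.14 within number 1, 0.10 within number 2). RPS29 stood at 50.5 CPM in CT1 and 73.7 CPM in CT2, against 93.4 CPM in U1 and 119 CPM in U2, the largest rise among them at 0.78 (SE 0.09). RPL37 stood at 2461 CPM in CT1 and 2623 CPM in CT2, against 3258 CPM in U1 and 3383 CPM in U2, with close replicates on each side and a log2 fold change of 0.39 (SE 0.05). Also named by size were RPS15A (0.61), RPS27 (0.49), RPS12 (0.31), RPL36A (0.45), RPL29 (0.32) and RPL11 (0.32). Ribosomal proteins have many processed pseudogenes, and the aligner named in the submitters' processing notes does not span introns, so their counts are uncertain. Of proteasome subunits, 4 of 31 measured members rose (12.9%) and 0 fell, against 7.56% and 6.22% among genes averaging at least 10 CPM. Their median was 0.15 (0.17 within number 1, 0.08 within number 2). PSMD2, PSMB7, PSMB1 and PSMD4 rose, by 0.31, 0.26, 0.23 and 0.21.

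Length moved with this result. Coding genes called higher had a median exon length of 3558 bases, against 5062 bases for those called lower and 5112 bases for those not called, and the median GC content was 53.3%, 53.9% and 49.2% in the same order. Called genes were also more abundant, with a median level of 52.2 CPM, 93.9 CPM and 18.5 CPM in that order. The shares called in lists of abundant genes, such as the ribosomal proteins, were not compared with genes of like level. With differences corrected for GC content and exon length, 579 genes were called higher and 448 lower, and the median of the respiratory chain list went from 0.22 to 0.20 and that of the large-subunit ribosomal proteins from 0.17 to 0.15. The medians of the mitochondrial genome and histone lists changed sign, to -0.02 and -0.03.

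**Figure D3:**
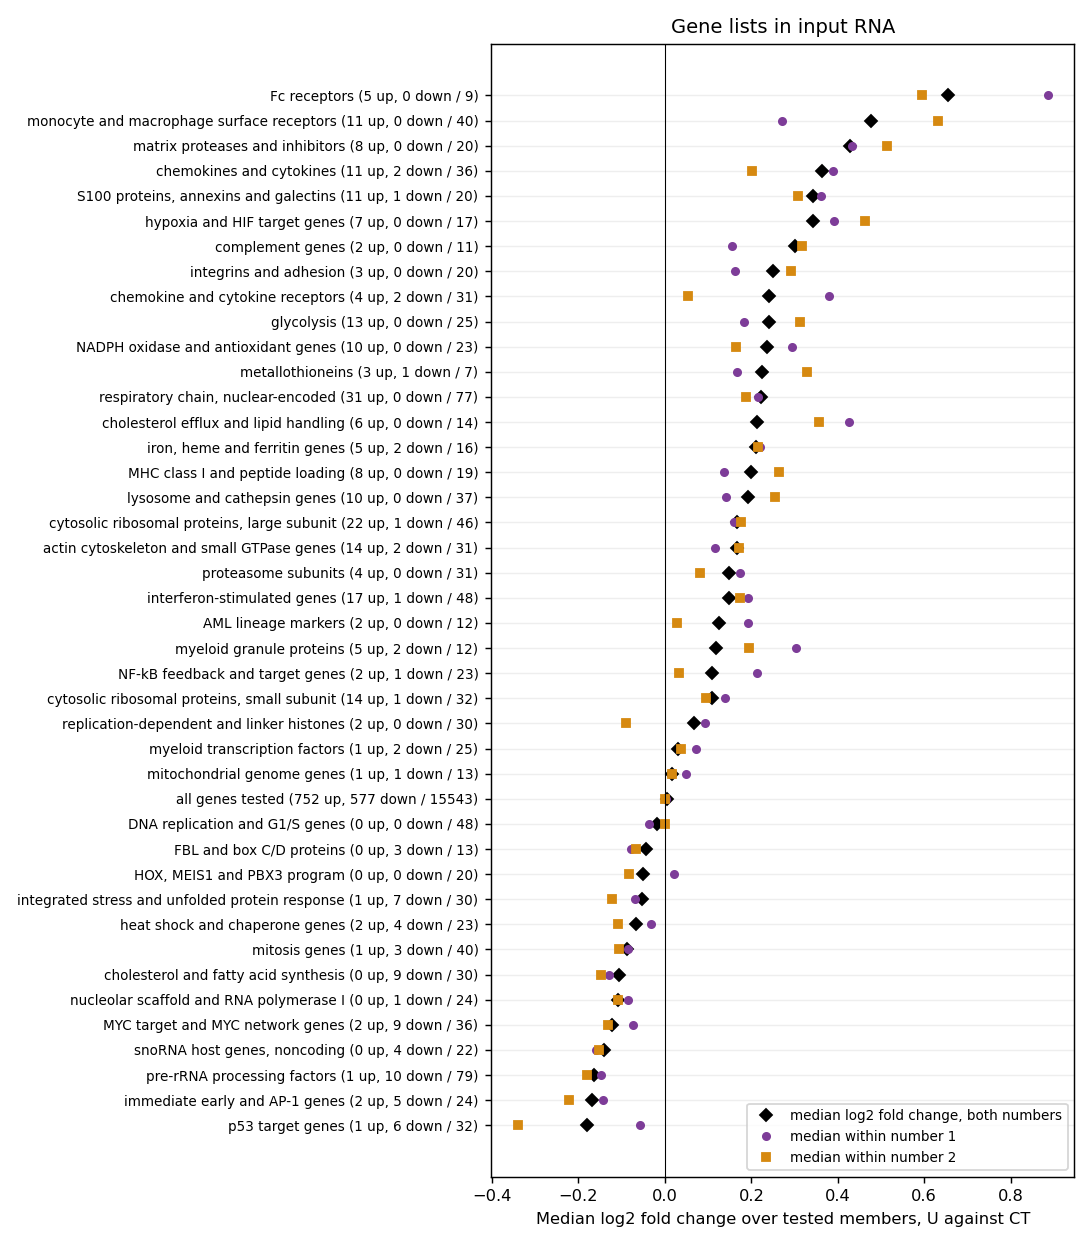
Median log2 fold change over the tested members of each gene list, U against CT (black diamonds), with the medians within number 1 (purple) and number 2 (orange); the counts give members called up, called down and tested, and lists of other cell types or with fewer than 5 tested members are left out. Of the lists drawn, Fc receptors, monocyte receptors and matrix proteases lie farthest right, the list of all genes tested lies at 0, and p53 targets and pre-rRNA processing factors are among those on the left.

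Calls among genes of ribosome assembly were mostly lower, opposite to the ribosomal proteins. Pre-rRNA processing factors cut, fold and modify the ribosomal RNA precursor in the nucleolus. In that list 10 of 79 measured members fell (12.7%) and 1 rose (NSA2, log2 fold change 0.44), with a median of -0.16 (-0.15 within number 1, -0.18 within number 2). Of the 79, 55 were down and 4 up in both numbers, against 4829 down and 4896 up of all 15543 genes tested. BYSL, a factor of small-subunit maturation, stood at 60.5 CPM in CT1 and 66.0 CPM in CT2, against 50.0 CPM in U1 and 43.9 CPM in U2. Both U libraries were lower, and the log2 fold change was -0.44 (SE 0.11). PDCD11, the RRP5 homologue that acts in the processing of both subunits, stood at 97.3 CPM in CT1 and 92.4 CPM in CT2, against 75.2 CPM in U1 and 68.4 CPM in U2, and fell by 0.40 (SE 0.09). NOL9, a kinase that acts on pre-rRNA ends, fell by 0.40 (SE 0.12). Among FBL and its box C/D partners, 3 of 13 measured members fell (23.1%) and 0 rose: the core protein NOP58 fell by 0.30 (SE 0.08), its partner NOP56 fell by 0.27 (SE 0.07), and the nucleolar chaperone NOLC1 fell by 0.26 (SE 0.08). NOP56 overlapped between the groups, and it overlaps small nucleolar RNA genes in the annotation. Of nucleolar scaffold and RNA polymerase I genes, SURF6 alone was called among 24 tested (4.17%), at -0.29 (SE 0.09). Among genes averaging at least 10 CPM, 6.22% were called lower. The median of the list was -0.11 (-0.09 within number 1, -0.11 within number 2). NPM1, the most abundant nucleolar scaffold in such cells, had a log2 fold change of -0.06 and was not called.

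Among noncoding hosts of small nucleolar RNAs the called genes were all lower. In that list 4 of 22 measured members fell (18.2%) and 0 rose, with a median of -0.14 (-0.16 within number 1, -0.15 within number 2). SNHG3 stood at 321 CPM in CT1 and 300.1 CPM in CT2, against 229 CPM in U1 and 205 CPM in U2, with a log2 fold change of -0.52 (SE 0.07). SNHG1, DANCR and SNHG12 fell too, with log2 fold changes of -0.45, -0.38 and -0.34. Each of these 4 genes had both U libraries below both CT libraries. All but DANCR overlap small nucleolar RNA genes in the annotation, and SNHG3 and SNHG12 also overlap coding genes.

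MYC drives growth genes including ribosome assembly. In the list of MYC target and MYC network genes, which is not limited to targets, 9 of 36 measured members fell (25%) and 2 rose. The median was -0.12 (-0.07 within number 1, -0.13 within number 2). ODC1, the first enzyme of polyamine synthesis, stood at 40.6 CPM in CT1 and 35.5 CPM in CT2, against 27.2 CPM in U1 and 21.4 CPM in U2. It fell by 0.65 (SE 0.13), with both U libraries lower. TERT, the catalytic subunit of telomerase, stood at 34.9 CPM in CT1 and 30.8 CPM in CT2, against 26 CPM in U1 and 23.8 CPM in U2, and fell by 0.40 (SE 0.14). MXD4, which competes with MYC for its partner MAX, fell by 0.37 (SE 0.10), whereas HSPE1, the mitochondrial co-chaperonin, rose by 0.41 (SE 0.08). MYC itself had a log2 fold change of -0.24 (SE 0.10, edgeR adjusted p = 0.124), which did not pass.

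Chaperones of the endoplasmic reticulum were among the genes that fell. Of integrated stress and unfolded protein response genes, 7 of 30 measured members fell (23.3%) and 1 rose, with a median of -0.05 (-0.07 within number 1, -0.12 within number 2). HSPA5, the main chaperone of that compartment, stood at 571 CPM in CT1 and 449.7 CPM in CT2, against 396 CPM in U1 and 310.0 CPM in U2. U2 was lowest, and the log2 fold change was -0.53 (SE 0.07). HYOU1, another such chaperone, fell by 0.45 (SE 0.12) and the transcription factor XBP1 fell by 0.38 (SE 0.08), with overlap between the groups for XBP1. The gene that rose was PHGDH, the first enzyme of serine synthesis, by 0.62 (SE 0.15), also with overlap. Of heat shock and chaperone genes, 4 of 23 measured members fell (17.4%) and 2 rose: HSPA4L fell by 0.64 (SE 0.22) and HSPH1 fell by 0.30 (SE 0.09), while the polyubiquitin gene UBB stood at 172 CPM in CT1 and 165 CPM in CT2, against 244 CPM in U1 and 225 CPM in U2, and rose by 0.47 (SE 0.07).

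Targets of p53, the factor activated by DNA damage and nucleolar stress, had more calls on the lower side. In that list 6 of 32 measured members fell (18.8%) and 1 rose, with a median of -0.18 (-0.06 within number 1, -0.34 within number 2). TP53I3, a quinone oxidoreductase, stood at 16.7 CPM in CT1 and 71.0 CPM in CT2, against 13.9 CPM in U1 and 34.0 CPM in U2. The groups overlapped, with number 2 higher within each label, and the log2 fold change of -0.83 (SE 0.13) came to -0.26 within number 1 and -1.06 within number 2. TP53INP1 fell by 0.84 (SE 0.28) and BTG2 fell by 0.46 (SE 0.11), both with overlap, while the tetraspanin CD82 rose. Within numbers 1 and 2, TP53INP1 came to -0.64 and -0.91, and BTG2 to -0.30 and -0.57. Without CT2 and without the block, the median of the list was 0.14, and the values were 0.56 for TP53I3, 0.094 for TP53INP1 and 0.0022 for BTG2, which are reversed in direction. That fit sets CT1 against U1 and U2, so its values also hold the difference between the numbers. Number 2 against number 1 gave 1.76 for TP53I3, 1.31 for TP53INP1 and 0.68 for BTG2 in the blocked fit. Among immediate early genes, 5 of 24 measured members fell (20.8%) and 2 rose. JUND, an AP-1 subunit, stood at 646 CPM in CT1 and 671 CPM in CT2, against 492 CPM in U1 and 430.2 CPM in U2, and fell by 0.52 (SE 0.06), and FOS, JUNB and IER2 fell, with log2 fold changes of -0.34, -0.27 and -0.21. ZFP36L1, which binds AU-rich messages and promotes their decay, stood at 9.49 CPM in CT1 and 9.17 CPM in CT2, against 23.9 CPM in U1 and 32.5 CPM in U2. It rose by 1.59 (SE 0.18), with 1.33 within number 1 and 1.82 within number 2, and the phosphatase DUSP6 rose by 0.67 (SE 0.15). Of 23 NF-kB feedback and target genes tested, 2 rose (8.7%) and 1 fell (4.35%), near the 7.56% and 6.22% among genes averaging at least 10 CPM. BCL2A1 and NFKB2 rose, by 0.96 (SE 0.19) and 0.47 (SE 0.10), and NFKBIB fell by 0.34 (SE 0.11).

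Cell cycle genes showed little. Of 48 DNA replication genes none was called (edgeR; 7 had an unadjusted p under 0.05, and DESeq2 and limma-voom with the block called 0), and the median was -0.02. Of 40 mitosis genes 3 fell (7.5%) and 1 rose (2.5%), against 6.22% and 7.56% among genes averaging at least 10 CPM. FOXM1, BIRC5 and MAD2L1 fell, with log2 fold changes of -0.36, -0.29 and -0.48, and the kinase CDK1 rose by 0.36. Without CT1 and without the block MAD2L1 came to 0.039. That fit sets CT2 against U1 and U2, and number 2 against number 1 gave -0.95 for MAD2L1 in the blocked fit. Its values were -0.43 within number 1 and -0.53 within number 2. The histone gene H2BC5 rose by 0.57 (SE 0.20), with 0.10 within number 1 and 0.95 within number 2.

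The remaining largest increases were CYTIP, an adaptor that regulates lymphocyte and dendritic cell adhesion (1.36, SE 0.23), SLC7A7, a cationic amino acid transporter subunit (1.28, SE 0.23), KCNMB1, a potassium channel subunit (1.26, SE 0.23), AIM2, a sensor of cytosolic DNA that builds an inflammasome (1.18, SE 0.25), and NOL3, an apoptosis repressor (1.16, SE 0.25). AIM2 stood at 5.27 CPM in CT1 and 5.56 CPM in CT2, against 12.3 CPM in U1 and 12.3 CPM in U2. In each of these 5 genes both U libraries were above both CT libraries, at levels below 20 CPM. The long noncoding genes that rose most were ENSG00000272405 (1.05, SE 0.15), LINC02611 (0.97, SE 0.15) and PPM1F-AS1 (0.91, SE 0.23), of which the first and the last overlap coding genes.

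The remaining largest decreases were a mixed set. TASL, an adaptor that links endosomal Toll-like receptors to the interferon regulatory factor IRF5, stood at 193 CPM in CT1 and 168 CPM in CT2, against 135 CPM in U1 and 91.4 CPM in U2. It fell by 0.69 (SE 0.08), with U2 lowest. LRP8, a receptor for reelin and apolipoprotein E, stood at 17.8 CPM in CT1 and 14.8 CPM in CT2, against 8.12 CPM in U1 and 8.67 CPM in U2, and fell by 0.94 (SE 0.21). OSR2, a zinc finger factor of limb and tooth development, stood at 29.7 CPM in CT1 and 34.9 CPM in CT2, against 14.2 CPM in U1 and 19.9 CPM in U2, and fell by 0.92 (SE 0.15). For these 3 genes the groups did not overlap. PIGA, which starts the synthesis of GPI anchors, fell by 0.99 (SE 0.23), with U2 far below the others at 3.80 CPM. DMRT3 (-1.05), a transcription factor, CEP43 (-0.76), a centriolar protein, USP16 (-0.72), a deubiquitinase of histone H2A, ZNF559 (-0.70), a zinc finger protein, and IBA57 (-0.70), a factor of iron-sulphur assembly, fell without overlap. XAGE1B, a cancer-testis gene with near-identical copies, stood at 24.4 CPM in CT1 and 66.0 CPM in CT2, against 18.4 CPM in U1 and 25.1 CPM in U2; its log2 fold change of -1.03 came to -0.41 within number 1 and -1.39 within number 2, and U2 lay above CT1.

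Polysome RNA of the same titles was taken from the same lysates per the protocols, so it is no second set of cultures. The blocked fit of the 4 polysome libraries called 29 of 14444 genes (0.201%), 22 higher (0.152%) and 7 lower (0.0485%). Of the 743 genes called higher in input and measured in polysome RNA, 548 were up in both polysome numbers, and of 571 called lower, 420 were down in both; over all 14020 genes with both measurements, 4157 were up and 4244 down in both. CCL2 stood in polysome RNA at 29 CPM in CT1 and 28.7 CPM in CT2, against 73.6 CPM in U1 and 83.6 CPM in U2, a log2 fold change of 1.44 (SE 0.16, edgeR adjusted p = 0.0266). IFITM3 stood at 982 CPM in CT1 and 997 CPM in CT2, against 1569 CPM in U1 and 1721 CPM in U2, a log2 fold change of 0.73 (SE 0.08, edgeR adjusted p = 0.0266). Both were thus higher in both fractions. S100A9 (1.09), FCER1G (1.20), TMSB4X (0.99), UBB (0.87), B2M (0.83), IFITM2 (0.85), IFI27 (0.71), IL32 (1.48), CHI3L1 (1.06), ANXA1 (1.12), S100A11 (0.80), S100A8 (0.74) and RNASE2 (0.84) were also called in polysome RNA, with these log2 fold changes. FTH1 had 0.47 (SE 0.13, edgeR adjusted p = 0.137) and did not pass. TASL and USP16 had -0.08 and -0.13 in polysome RNA, against -0.69 and -0.72 in input, and the difference between the fractions did not pass the test for either (adjusted p = 0.541 and 0.708). Without the block no polysome gene was called (edgeR; 1798 at an unadjusted p under 0.05). The change differed between the fractions, in the test of that difference, for 2 of 16503 genes (0.0121%), both with a lower value in polysome RNA: RPL37 and MIR142HG.

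**Figure D4:**
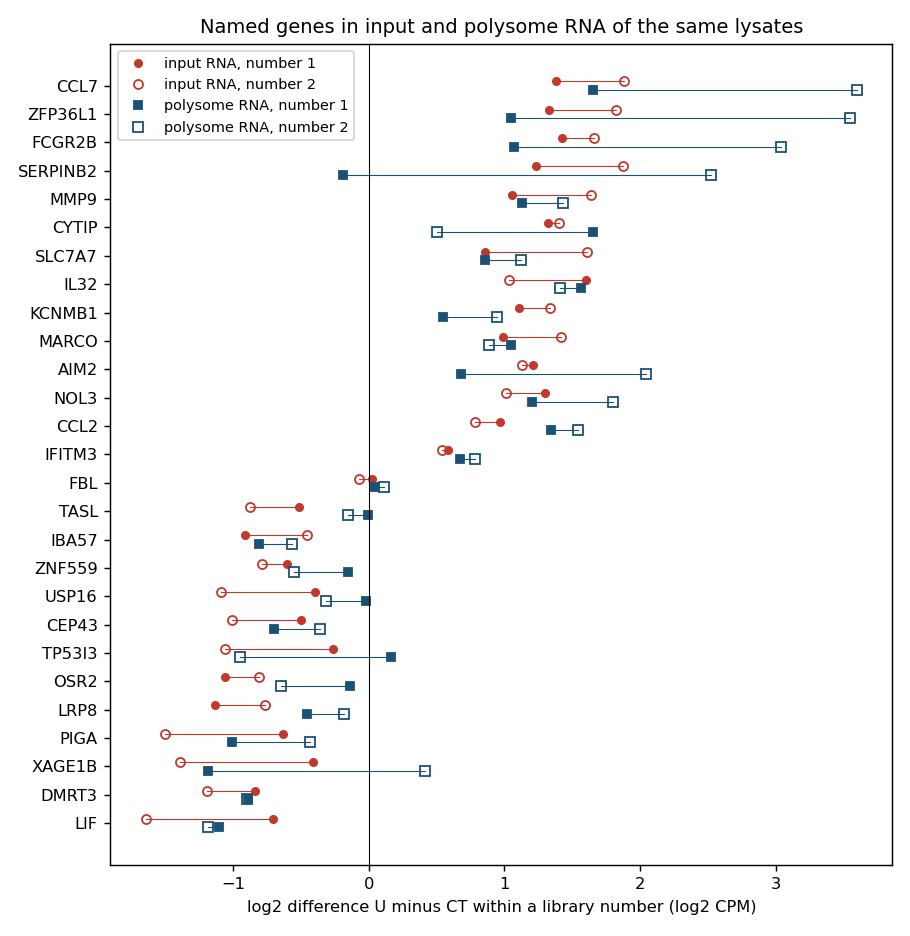
Log2 difference U minus CT within number 1 (filled) and number 2 (open) in input RNA (red circles) and polysome RNA (blue squares), for the genes of the level plot. CCL2 and IFITM3 lie right of 0 in all 4 differences, FBL lies near 0, and SERPINB2, TP53I3 and XAGE1B differ in sign between the polysome numbers.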

How the data were processed

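Per the submitters' processing notes, the authors used Trimmomatic 0.38, Bowtie2 and HTSeq 0.11.2 with GRCh38, and they deposited unnormalized counts for each gene. The sources used here give no annotation release, read layout or strand setting, so reads of a gene and its overlapping or antisense partner cannot be separated. Lines that name no gene (14.2% to 14.9% of reads in input) stayed out of library sizes and tests. Of 58395 listed genes, 58275 were matched to GENCODE v29.

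The 4 input libraries entered an edgeR 4.0.16 fit under R 4.3.3 (TMM, filterByExpr, quasi-likelihood F test, model number + label), which left 15543 genes. Within-number differences are log2 CPM with a prior count of 2. P-values were adjusted over all genes tested. Polysome libraries were fitted alike (14444 genes), and the difference between fractions with the lysate as a block. Scaling makes each change relative to the bulk of genes, and the depth (30818670 to 43118190 counts) leaves few reads for genes near 1 CPM.

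The blocked numbers are those of the titles. Across 8608 genes, CT1 minus CT2 and U1 minus U2 differences had a correlation of 0.471. The labels do not say what a number marks, so values without the block are given too.

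Named were FBL, IFITM3 and CCL2; the 12 largest increases and 12 largest decreases among called coding genes with at least 10 CPM in the higher group and the same direction in both numbers; up to 4 called members of each gene list by size; and the 3 largest long noncoding changes. Other genes, such as CXCL10, CHI3L1, CD14, TNF, MX1, IRF7, NPM1, MYC and the members that moved against their list, were named after their values were seen. The comparison and the gene lists were chosen with earlier results of these data known. Lists got no test. A few genes that the rule selects are not reported here. Alternatives used other scalings, filters, limma 3.58.1, DESeq2 1.42.0, a correction for GC content and exon length (mgcv 1.9.3), other blocks and leaving out each library; limma-voom without a shared spread was added after seeing the data. Promoter windows came from RefSeq (GRCh38.p14), matched by symbol.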

Additional observations from a re-analysis of the deposited data

Results flagged for a closer look

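The change between labels differed between polysome and input RNA for 2 of 16503 genes (edgeR, interaction of fraction and label with the lysate as a block). For RPL37, a protein of the large ribosomal subunit, the polysome change minus the input change was -0.57 (SE 0.07, adjusted p = 0.0392): it rose in input RNA by 0.39 and had -0.12 (SE 0.07, edgeR adjusted p = 0.521) in polysome RNA, where it stood at 1631 CPM in CT1 and 1810.5 CPM in CT2, against 1547 CPM in U1 and 1627 CPM in U2. For MIR142HG, the noncoding host of the haematopoietic microRNA miR-142, the difference was -1.42 (SE 0.15, adjusted p = 0.0253): it stood in input RNA at 291 CPM in CT1 and 539.5 CPM in CT2, against 257 CPM in U1 and 399 CPM in U2, a log2 fold change of -0.31, and in polysome RNA at 71.5 CPM in CT1 and 146 CPM in CT2, against 22.9 CPM in U1 and 45.8 CPM in U2, a log2 fold change of -1.66 (SE 0.15, edgeR adjusted p = 0.0247). MIR142HG overlaps the MIR142 gene. Without the block neither was called (no gene at an adjusted p under 0.05, 1022 at an unadjusted p under 0.05).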

How the results depend on the processing

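The count of 752 higher and 577 lower genes stayed within 1.5 times under RLE scaling (631 and 491), upper quartile scaling (833 and 457, 64.6% higher against 56.6%), a minimum of 10 CPM (810 and 615), legacy (744 and 556) and robust (752 and 577) quasi-likelihood fits, limma-voom (746 and 594) and the correction for GC content and exon length (579 and 448). It did not without a filter on low counts (174 and 83) or with DESeq2 (341 and 280). By block, it was 7 and 0 without the replicate block, 0 and 0 in 8 libraries with a block in each fraction, 66 and 20 in 8 libraries with a single block, and 0 and 0 in limma-voom without moderation. Leaving out each library in turn was run in the fits that then still had residual degrees of freedom: 0 to 34 higher and 0 to 5 lower without the block (24 and 5 without CT1, 34 and 3 without CT2, none without U1 or U2), and 0 to 0 higher and 0 to 1 lower with the block in 8 libraries. The lone library of a label is then assumed to vary like the others. Without the block, the polysome count went from 29 to 0 and the count of genes differing between fractions from 2 to 0. The cause of these changes was not tested.

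FBL stayed near 0 with the block and changed sign under upper quartile scaling (0.00089), and it ranged from -0.0939 to 0.00643 leaving out a library with the block in 8 libraries (0.00632 without CT2, 0.00643 without U2). Without the block it ranged from -1.01 to 0.92 (0.92 without CT1, 0.58 without U2), since the remaining libraries then differ in number. Leaving out a library without the block also reversed TP53I3 (0.56), BTG2 (0.0022) and TP53INP1 (0.094) without CT2, ITGB2 (-0.0614) and XBP1 (0.0511) without U2, and MAD2L1 (0.039) without CT1. In these fits too the remaining libraries differ in number. Of 161 named genes other than FBL, 6 kept their call without the block, 40 in 8 libraries with a single block and, with DESeq2, 103 of the 120 to which it gave an adjusted p. Of 47 list medians, 24 to 29 moved by more than the SD between the numbers when a library was left out without the block, and 16 to 26 with the block in 8 libraries; 1 to 5 and 1 to 4 of them changed sign, in the p53, HOX, heat shock, DNA replication, mitosis, histone, mitochondrial genome, erythroid, lymphoid and stem cell lists. Genes below about 1 CPM in a group have fold changes that depth leaves imprecise.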

Other observations

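A few genes had unlike differences in the 2 numbers. EIF3CL, a near-identical copy of the translation initiation gene EIF3C, stood at 5.65 CPM in CT1 and 105 CPM in CT2, against 9.78 CPM in U1 and 10.0 CPM in U2; CT2 was far above the rest. C10orf88 stood at 9.32 CPM in CT1 and 11.9 CPM in CT2, against 14.4 CPM in U1 and 7.82 CPM in U2, up in number 1 and down in number 2. NECTIN4 stood at 2.34 CPM in CT1 and 14.5 CPM in CT2, against 2.70 CPM in U1 and 5.66 CPM in U2, and SIL1, a co-chaperone of HSPA5, at 38.0 CPM in CT1 and 31.8 CPM in CT2, against 34.4 CPM in U1 and 56.0 CPM in U2. MIR223HG, the host of the myeloid microRNA miR-223, stood at 46.1 CPM in CT1 and 70.4 CPM in CT2, against 47.6 CPM in U1 and 43.8 CPM in U2. These genes, the first and the last 3 of them called, were named after their values were seen. ENSG00000274276, called with and without the block, stood at 1.33 CPM in CT1 and 1.31 CPM in CT2, against 9.98 CPM in U1 and 8.24 CPM in U2. In polysome RNA it stood at 0 CPM in CT1 and 4.67 CPM in CT2, against 0.41 CPM in U1 and 13.7 CPM in U2. There the levels followed the number, and the label change did not pass (edgeR adjusted p = 0.206).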
